A study of Mus musculus with 6 samples.

Results

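The hippocampus of mice after postnatal immune activation (PIA) was compared with that of Control mice by RNA sequencing of total RNA, with 2 libraries of each group out of 6 in the series. The members were chosen by treatment label, which gave Control 1, Control 2, PIA 1 and PIA 2. The series design calls the PIA libraries LPS, bacterial lipopolysaccharide, and the remaining 2 libraries (PIA+IL-27) received recombinant IL-27 besides. Those 2 served in the estimate of spread between libraries, in the filter on low counts and in factors computed on the listed genes. They also entered correlations between same-numbered libraries and the authors' selection of genes. Strain, sex, age, the dose and timing of LPS and the number of animals behind a library are not given in the labels. The spread between these libraries may therefore be technical. P-values and SEs cover that spread as pooled over genes, and not the spread of the single gene. The table lists 3733 genes, each of which passed the authors' cutoffs in at least 1 of their 3 group comparisons, per the authors' deposited table. It is a selection made on these libraries, and all shares given here are shares of that selection. In the comparison of PIA with Control itself, 1957 of the genes (52.4%) passed those cutoffs. Genes that changed little can thus be absent.

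LPS is sensed by Toll-like receptors on microglia, macrophages and vascular cells, which answer with cytokines, chemokines and interferons. Type I interferons raise antiviral genes such as the Ifit and Oas families. Interferon gamma, made by NK and T cells, acts in part through IRF1 and raises the interferon-induced GTPases and, through NLRC5 and CIITA, the genes that present antigen on MHC class I and class II. The hippocampus lies under the ependyma of the lateral ventricle and beside the choroid plexus and the meninges, so tissue taken from it can carry cells of all 3.

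Libraries that share a treatment label were not alike. Reads in the listed genes numbered 641672 to 1533805, a part of libraries estimated at 15099699 to 15863269 reads, and a count of 0 allows up to 3 reads in a library, with counting error only. The normalized read counts of Control 1 and Control 2 differed by over 2-fold at 2567 genes (68.8%), 2131 of them higher in Control 2, against 1173 genes (31.4%) between PIA 1 and PIA 2. Control 2 held choroid plexus RNA, with 58611 normalized read counts of the transthyretin gene Ttr against 78.4 in Control 1, 11302 in PIA 1 and 141 in PIA 2. PIA 1 held the most neutrophil RNA, with 598 normalized read counts of S100a8 against 153, 5.71 and 19.6 in Control 1, Control 2 and PIA 2. PIA 2 held the least dentate gyrus RNA, with 96.0 normalized read counts of Prox1 against 590, 1296 and 627 in the other 3 libraries. Y-linked genes were at or near 0 in both Control libraries and present in both PIA libraries, so treatment and the sex of the animals cannot be told apart. Group comparisons below are therefore given by library. In these bulk samples fewer cells of a type and less RNA per cell cannot be told apart.

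At 1259 of the 3733 listed genes (33.7%) the groups did not overlap. PIA lay above Control in every pairing of libraries at 642 genes (17.2%) and below it in every pairing at 617 genes (16.5%). The separation was narrow at most of them, with a median gap of 0.47 on the log2 scale between the nearest libraries of the 2 groups where PIA was higher and -0.44 where it was lower. The nearest libraries were over 2-fold apart, with 1 added to each count, at 120 genes that were higher in PIA and 110 that were lower. Control 1 was the Control library nearest to PIA at 550 of the 617 genes that were lower, so that at these genes Control 2 lay farther away. Without Control 2 the genes higher in PIA numbered 1568 and the lower ones 679, and without Control 1 they numbered 893 and 2537. Without PIA 1 they numbered 844 and 1560. The median fitted log2 fold change over the 3216 genes tested was -0.68, and it became 0.00 when libraries were scaled on the listed genes themselves. It was -1.19 without Control 1, 0.29 without Control 2, -0.89 without PIA 1 and -0.52 without PIA 2. Every list median below is read against the value for its own setting. Counts of separated genes in a list are likewise read beside the 17.2% higher and 16.5% lower of all listed genes. They do not describe a whole list as drawn up, because the table holds only part of each. It holds 18 of 21 GTPase, 16 of 25 class I and 7 of 16 class II genes drawn up. For interferon regulatory factors it holds 5 of 9, for inflammatory cytokines 9 of 23 and for T, B and NK cells 7 of 24.

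Few single genes passed the test. The edgeR quasi-likelihood test, with Benjamini-Hochberg adjustment, called 7 of 3216 genes (0.218%), of which 5 were higher in PIA (0.155%) and 2 were lower (0.0622%). Of these 5, 4 were the Y-linked genes Kdm5d, Ddx3y, Eif2s3y and Uty. The histone demethylase gene Kdm5d counted 0 and 0 normalized reads in the Control pair and 145 and 151 in the PIA pair (edgeR adjusted p = 1.07e-05). Ddx3y, an RNA helicase gene, had 0 and 0 against 129 and 79.6 (edgeR adjusted p = 2.64e-05). The fifth, Entpd4, was found in a single library, with 100.9 normalized read counts in PIA 1 and 0 in the other 3 libraries. Of the lower genes, Gm45855 had 1048 normalized read counts in Control 2 and 16.7 to 27.3 in the other 3 libraries, so its groups overlapped. Hmga1b counted 336 and 32.4 normalized reads in the Control pair and 8.65 and 1.09 in the PIA pair. Its near-identical copy Hmga1 differed the other way, and the sum of the pair was 1446 and 973 in the Control pair and 1459 and 1697 in the PIA pair, so the value of the single copy is uncertain. The histone genes H3c14 and H3c15, near the threshold, also differed in opposite directions, and their sums overlapped at 21.5 and 14.3 against 15.4 and 17.5. No call was left with factors computed on the listed genes, by TMM (117 genes at an unadjusted p under 0.05) or by median of ratios (112 genes), and none without Control 1 (1264 genes) or without Control 2 (46 genes). At an unadjusted p under 0.05 the main test held 202 genes (6.28%), 98 of them higher (3.05%) and 104 lower (3.23%).

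**Figure D1:**
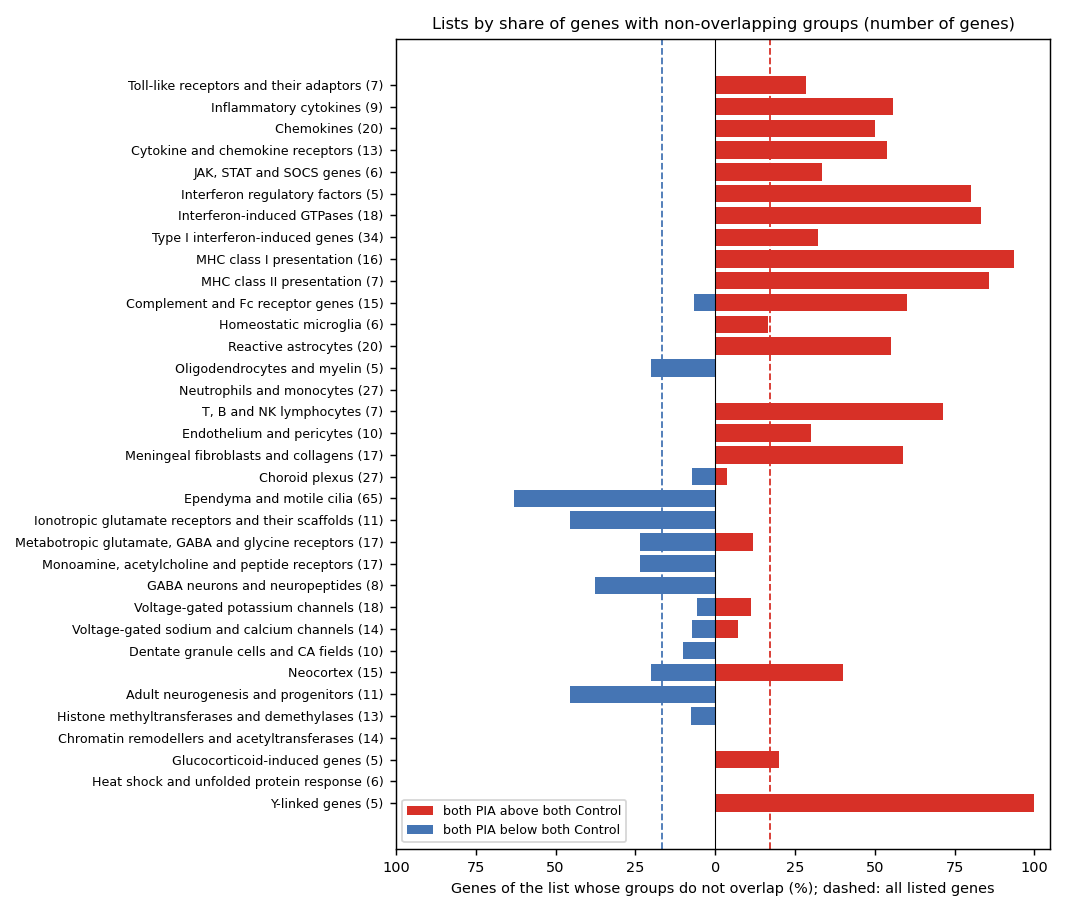
Share of each gene list (vertical axis, number of listed genes in brackets) at which both PIA libraries lay above (red, right) or below (blue, left) both Control libraries, in percent of the listed genes. Dashed lines mark 17.2% and 16.5%, the shares over all 3733 genes; among the lists drawn, those with at least 5 listed genes, and after the Y-linked genes, MHC class I (93.8%), class II (85.7%) and the interferon-induced GTPases (83.3%) reach farthest to the right, and the motile cilia genes (63.1%) reach farthest to the left.

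The interferon-induced GTPases, which attack the membranes of vacuoles that hold microbes, were among the most uniform lists. Their promoters are printed here because the list shares a sequence feature that the comparison did not use. The 200 bases before the start site are shown for 4 of them, from RefSeq on build GRCm38.p6, with capitals for the interferon-stimulated response element (ISRE, GAAA, any 2 bases, GAAA) and the gamma-activated site (GAS, TTCNNNGAA) on either strand.
Tgtp2: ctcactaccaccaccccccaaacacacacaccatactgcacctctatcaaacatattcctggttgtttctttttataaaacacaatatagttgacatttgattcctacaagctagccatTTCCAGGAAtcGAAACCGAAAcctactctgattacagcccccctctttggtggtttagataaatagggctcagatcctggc
Igtp: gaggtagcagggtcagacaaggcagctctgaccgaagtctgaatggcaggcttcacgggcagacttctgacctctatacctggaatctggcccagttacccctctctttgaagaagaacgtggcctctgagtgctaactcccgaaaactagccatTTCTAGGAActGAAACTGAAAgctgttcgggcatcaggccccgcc
Irgm2: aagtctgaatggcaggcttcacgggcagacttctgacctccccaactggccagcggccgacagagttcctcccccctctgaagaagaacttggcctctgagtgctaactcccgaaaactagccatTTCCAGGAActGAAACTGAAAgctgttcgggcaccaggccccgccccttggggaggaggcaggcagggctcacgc
Gbp2: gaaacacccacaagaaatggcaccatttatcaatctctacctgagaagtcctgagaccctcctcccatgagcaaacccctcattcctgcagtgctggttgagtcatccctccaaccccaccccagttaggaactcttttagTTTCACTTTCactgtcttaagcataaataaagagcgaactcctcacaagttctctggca
These windows lie at chr11:49064213-49064412 (minus strand), chr11:58199356-58199555 (plus strand), chr11:58214777-58214976 (plus strand) and chr3:142620463-142620662 (plus strand). In Tgtp2, Igtp and Irgm2 a GAS stands just before an ISRE, with the GAS starting 81, 45 and 75 bases upstream of the start and the ISRE starting 70, 34 and 64 bases upstream. Gbp2 carries an ISRE alone, read on the opposite strand, from 59 to 50 bases upstream.

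An ISRE was found in 10 of the 12 promoters of listed GTPase genes in the RefSeq table (83.3%), in 300 bases from 250 before to 50 after the start, against 3.44% of all 32851 promoters. A GAS was found in 6 of the 12, against 8.30% of all. Only 11 of the 18 genes were matched to a promoter, and a match of letters is a description and no evidence of binding.

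Of the 18 listed GTPase genes, 15 lay higher in both PIA libraries than in both Control libraries, and none lay lower. All 16 tested members had a fitted log2 fold change above 0, with a median of 2.10 against -0.68 over all genes. Of the 16, 10 passed an unadjusted p of 0.05, and none passed after adjustment. The count of 15 was 17 with factors computed on the listed genes and 15 in TPM. It was 15 to 17 when any 1 library was left out, but leaving out a library cannot lower such a count. Summed over the list, TPM, a level per transcript length, was 40.2 and 18.7 in the Control pair and 124 and 139 in the PIA pair. Tgtp2, a GTPase first found in T cells, counted 11.8 and 4.76 normalized reads in the Control pair and 74.0 and 149 in the PIA pair (log2 fold change 3.82 with an SE of 1.14; n = 2 a side; edgeR adjusted p = 0.158). Part of its reads may be shared with the near copy Tgtp1, and the sum of both was 41.1 and 18.1 in the Control pair and 205 and 268 in the PIA pair. Igtp, also called Irgm3, counted 116 and 17.1 normalized reads in the Control pair and 287 and 709 in the PIA pair. Iigp1, the effector of the immunity-related group, had 13.7 and 13.3 against 75.9 and 106. Gbp6, a guanylate-binding protein gene, had 20.6 and 19.996 against 97.0 and 104. For these last 2 genes the libraries of each group lay close to each other and the groups lay far apart. Irgm1, a regulator of the family, counted 178 and 62.8 normalized reads in the Control pair and 544 and 504 in the PIA pair. The other 3 members overlapped between groups. Gbp7 had 19.6 and 41.9 against 25.9 and 49.1, Gbp8 had 0.979 and 10.5 against 9.61 and 30.5, and Gvin1 had reads in PIA 1 alone.

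**Figure D2:**
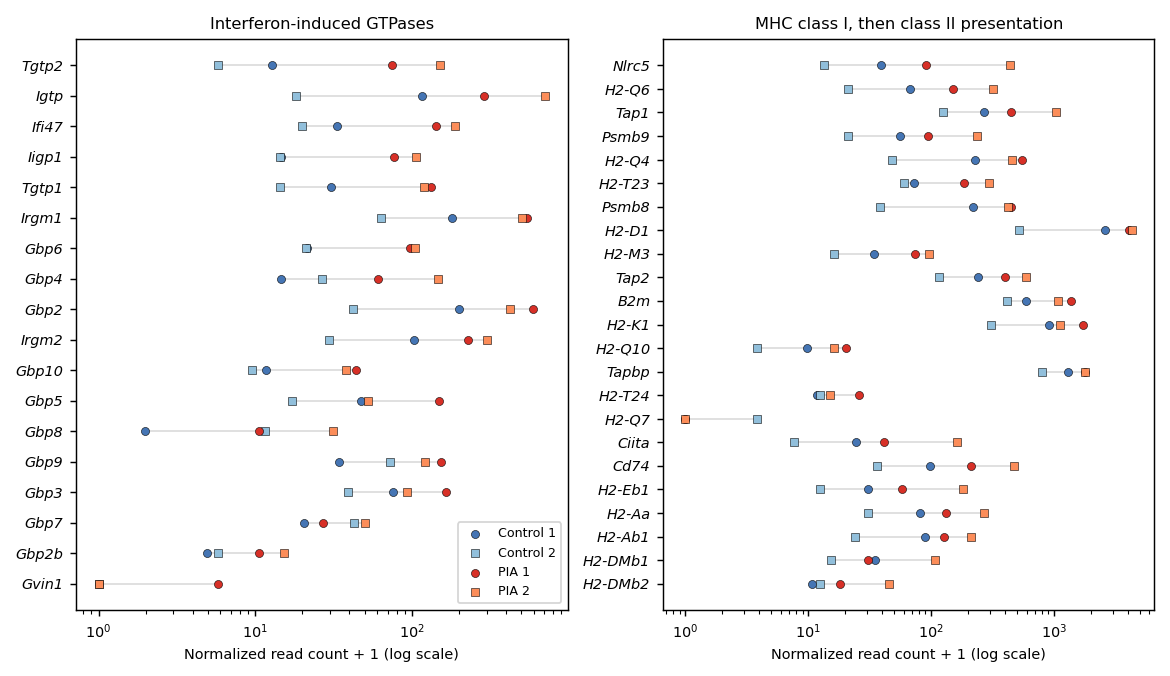
Normalized read count plus 1 of each listed gene in the 4 libraries (horizontal log axis), for the interferon-induced GTPases (left) and MHC class I followed by class II presentation genes (right). Circles are the first and squares the second library of Control (blue) and PIA (red and orange); the red and orange points lie to the right of both blue ones at 15 of 18 GTPase genes and at 15 of 16 class I genes.

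Genes that present peptides on MHC class I were higher in PIA in the same way. The PIA pair stood above the Control pair at 15 of the 16 listed genes, and this count was 15 under every scaling. It was also 15 without any 1 library, though leaving out a library cannot lower it. The exception, H2-Q7, had 2.86 normalized read counts in Control 2 and 0 in the other 3 libraries. The median log2 fold change of the 15 tested genes was 1.80 (1.13 without Control 2, against 0.29 over all genes). Of the 15, 6 had an unadjusted edgeR p under 0.05 in the main fit and none was called. Nlrc5, the transactivator of class I genes, counted 38.2 and 12.4 normalized reads in the Control pair and 90.3 and 440 in the PIA pair (log2 fold change 3.38 with an SE of 1.03; n = 2 a side; edgeR adjusted p = 0.204). Its 2 PIA libraries differed more from each other than PIA 1 differed from Control 1. The immunoproteasome subunit gene Psmb8 counted 216 and 37.1 normalized reads in the Control pair and 444 and 425 in the PIA pair. The peptide transporter gene Tap1 had 269 and 125 against 448 and 1033. B2m, the light chain of all class I molecules, had 592 and 415 against 1366 and 1071, and the heavy chain gene H2-D1 had 2606 and 517 against 4088 and 4327. Heavy chain genes are close copies of each other, so their single values are uncertain. Summed over the list, TPM was 503 and 234 in the Control pair and 926 and 881 in the PIA pair.

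MHC class II genes, used by microglia, macrophages and dendritic cells to show peptides to helper T cells, separated at 6 of 7 listed genes. The median log2 fold change of the 7 was 1.85. It was 2.87 without Control 1, 1.62 without Control 2, 2.28 without PIA 1 and 1.25 without PIA 2. Ciita, the class II transactivator, counted 23.5 and 6.67 normalized reads in the Control pair and 40.4 and 163 in the PIA pair (log2 fold change 2.83 with an SE of 1.09; n = 2 a side; edgeR adjusted p = 0.504). Cd74, the invariant chain, had 97.9 and 35.2 against 211 and 473, and H2-Eb1 had 29.4 and 11.4 against 56.7 and 180. PIA 2 was the highest library at all 7 genes. The peptide-loading gene H2-DMb1 overlapped, with 34.3 and 14.3 in the Control pair and 29.8 and 106 in the PIA pair.

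The promoters of B2m and of the class II chain gene H2-Aa are shown for other motifs, the CCAAT box and the kappa B site. The CCAAT box, read by NF-Y, was frequent in both lists, and the kappa B site, read by NF-kB, was frequent in class I promoters. Capitals mark both in B2m and the CCAAT box in H2-Aa, on either strand, at chr2:122147487-122147686 (plus strand) and chr17:34287824-34288023 (minus strand) of the same build.
B2m: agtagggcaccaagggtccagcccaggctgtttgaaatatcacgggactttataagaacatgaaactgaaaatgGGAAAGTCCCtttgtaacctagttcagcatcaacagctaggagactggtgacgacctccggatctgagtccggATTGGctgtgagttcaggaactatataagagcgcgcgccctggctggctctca
H2-Aa: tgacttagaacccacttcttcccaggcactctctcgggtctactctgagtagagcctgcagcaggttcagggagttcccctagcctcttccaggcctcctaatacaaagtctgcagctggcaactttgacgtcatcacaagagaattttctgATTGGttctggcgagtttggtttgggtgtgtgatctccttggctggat
A CCAAT box was found in 12 of 14 class I promoters (85.7%) and all 4 matched class II promoters, against 37.4% of all promoters. A kappa B match was found in 8 of the 14 class I promoters (57.1%) and 1 of the 4 class II promoters, against 4.51% of all. ISRE letters were found in 2 of the 14, among them B2m, where they are left in lower case, as is a kappa B match in H2-Aa.

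Upstream of these targets stand the transcription factors of the interferon pathway. Of 5 listed interferon regulatory factor genes, 4 separated upwards, but the count was 2 with factors computed on the listed genes. Their median log2 fold change of 1.42 was 2.19 without Control 1 and 0.67 without Control 2. The median of all genes was then -1.19 and 0.29, respectively. Irf1, the mediator of interferon gamma responses, counted 198 and 84.7 normalized reads in the Control pair and 307 and 847 in the PIA pair. Irf7, the amplifier of type I interferon, did not separate, with 358 and 21.9 in the Control pair and 790 and 251 in the PIA pair. The feedback inhibitor Socs3 overlapped at 180 and 79.0 against 368 and 143. Batf2, a factor induced by interferon gamma, was named by its wide gap, with 1.96 and 1.90 normalized reads in the Control pair and 21.1 and 50.2 in the PIA pair (log2 fold change 4.12 with an SE of 1.37; n = 2 a side; edgeR adjusted p = 0.278).

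The antiviral genes of the type I response were less uniform. Of 34 listed genes 11 separated upwards (32.4%, against 17.2% of all listed genes) and none downwards. A fitted value above 0 was found at 31 of 34, with a median of 1.14 that was 0.52 without PIA 1 and 0.71 without Control 2. Over all genes the median was then -0.89 and 0.29, respectively. Isg15, a ubiquitin-like modifier, counted 99.9 and 10.5 normalized reads in the Control pair and 270 and 96.0 in the PIA pair, so PIA 2 lay below Control 1. Ifit3, which binds viral RNA, separated at 45.1 and 16.2 against 206 and 70.9. Zbp1, a sensor of nucleic acid that can start cell death, had 40.2 and 0 against 107 and 85.1. The number of separated genes was 30 of 34 without PIA 2 and 12 without PIA 1. Whether the 2 interferon programmes differed from each other was not tested.

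Among the innate sensors, Tlr9 and the adaptor gene Myd88 separated upwards (28.6%, against 17.2% of all listed genes), and the other 5 listed genes did not. Myd88 counted 146 and 72.4 normalized reads in the Control pair and 243 and 202 in the PIA pair. Cd14, which hands LPS to its receptor, had 155 and 50.5 against 364 and 133. Only 3 of 16 NF-kB genes drawn up are listed (Bcl3, Ikbke and Nfkb2), and these 3 separated upwards. Bcl3 did so most widely, with 19.6 and 7.62 against 74.0 and 40.4. Tlr4, the LPS receptor gene, is not listed in the table.

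Inflammatory cytokine genes separated upwards at 5 of 9, with a median log2 fold change of 1.99 over 8 tested that was 0.29 without PIA 1 and 3.45 without Control 1. Acod1, which makes itaconate in activated macrophages, counted 21.5 and 0 normalized reads in the Control pair and 166 and 60.0 in the PIA pair (log2 fold change 3.38 with an SE of 1.11; n = 2 a side; edgeR adjusted p = 0.278). Tnf had 11.8 and 0.952 against 49.965 and 21.8, counts that are low in every library. Il1b did not separate, with 18.6 and 1.90 against 72.1 and 7.64, and Il1rn, its natural antagonist, had 18.6 and 1.90 against 170 and 6.55. For both, PIA 1 was high and PIA 2 lay below Control 1.

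The subunits of IL-27, the cytokine named in the title of the series, were both higher in PIA, at low levels. Ebi3, the subunit it shares with IL-35, counted 69.5 and 31.4 normalized reads in the Control pair and 136 and 100 in the PIA pair (log2 fold change 1.23 with an SE of 0.97; n = 2 a side; edgeR adjusted p = 0.617). Il27, the subunit specific to it, had 0.979 and 0.952 against 2.88 and 7.64 and was too low to be tested. The receptor gene Il27ra is not listed.

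Chemokine genes separated upwards at 10 of 20, with a median log2 fold change of 1.83 over 15 tested that was 0.79 without PIA 1 and 2.92 without Control 1. Cxcl9, induced by interferon gamma and an attractant of T cells, counted 9.79 and 1.90 normalized reads in the Control pair and 76.9 and 52.4 in the PIA pair (log2 fold change 3.44 with an SE of 1.21; n = 2 a side; edgeR adjusted p = 0.384). Cxcl10, a ligand of the same receptor, had 39.2 and 2.86 against 238 and 124. Ccl5 had 49.95 and 0.952 against 271 and 60.0, so PIA 2 stood only just above Control 1. Ccl2, which recruits monocytes, overlapped at 33.3 and 2.86 against 113 and 27.3. Ccl21a lay the other way because of Control 2, with 0 and 181 against 2.88 and 5.46. Of 13 listed cytokine and chemokine receptor genes 7 separated upwards, among them the TNF receptor gene Tnfrsf1b at 133 and 60.0 against 306 and 167.

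Complement and Fc receptor genes separated upwards at 9 of 15. Their median log2 fold change of 1.31 was 2.67 without Control 1 and 0.64 without Control 2, against -1.19 and 0.29 over all genes. Complement C2 counted 77.4 and 24.8 normalized reads in the Control pair and 208 and 227 in the PIA pair. Factor B, encoded by Cfb, had 239 and 10.5 against 667 and 280. The single gene that separated downwards, C1rb, is a close copy of C1ra, and the sum of the pair was 96.0 and 20.9 in the Control pair and 302 and 82.9 in the PIA pair. C1qa, which microglia make, overlapped at 702 and 317 against 623 and 1501.

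Genes of reactive astrocytes separated upwards at 11 of 20, with a median log2 fold change of 1.83 (0.67 without PIA 1 and 2.89 without Control 1), and 7 of those 11 also stand in the lists of GTPases, chemokines, class I genes or complement. Serpina3f, a protease inhibitor gene, counted 17.6 and 2.86 normalized reads in the Control pair and 128 and 233 in the PIA pair (log2 fold change 4.19 with an SE of 1.11; n = 2 a side; edgeR adjusted p = 0.0579). Serpina3g had 87.2 and 7.62 against 308 and 328. These serpins belong to a cluster of close copies, so reads can be split between them. The general markers of reactivity did not separate. Gfap, the astrocyte filament gene, had 13757 and 5522 against 17945 and 6035, and Lcn2, lipocalin 2, had 214 and 1.90 against 1496 and 46.9.

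Homeostatic microglial genes overlapped at 5 of 6, with a median log2 fold change of -0.66 that became 0.27 with factors computed on the listed genes and ran from -1.82 to 0.93 without 1 library. P2ry12, the purine receptor of resting microglia, counted 14.7 and 232 normalized reads in the Control pair and 9.61 and 56.7 in the PIA pair. Control 1 and PIA 1 were low and Control 2 and PIA 2 were high, so the values followed no group. Selplg alone separated, at 80.3 and 77.1 against 156 and 169.

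The neutrophil and monocyte genes, read as markers of blood cells in the tissue, did not separate at any of 27 listed genes. Their summed normalized read counts were 2340 and 369 in the Control pair and 8371 and 1213 in the PIA pair. PIA 1 was the high library and Control 2 the low one, and the fitted median of 1.95 over 23 tested genes became -1.41 without PIA 1. Saa3, an acute-phase gene, counted 340 and 0.952 normalized reads in the Control pair and 3384 and 96.0 in the PIA pair. In the GTPase list the summed normalized read counts were 906 and 437 in the Control pair and 2785 and 3139 in the PIA pair. In the class I list they were 6645 and 2504 against 11435 and 12214. Control 2 was thus the lowest library in these lists as well, but PIA 1 was not above PIA 2. Of 7 listed genes of T, B and NK cells, 5 separated upwards at low counts. The perforin gene Prf1 had 0 and 0 against 8.65 and 3.27, and Nkg7, a granule gene of cytotoxic cells, had 0 and 0 against 7.69 and 5.46. The summed counts of the 7 genes were 22.5 and 9.52 in the Control pair and 92.2 and 34.9 in the PIA pair. The part of such cells in the higher interferon genes was not tested.

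**Figure D3:**
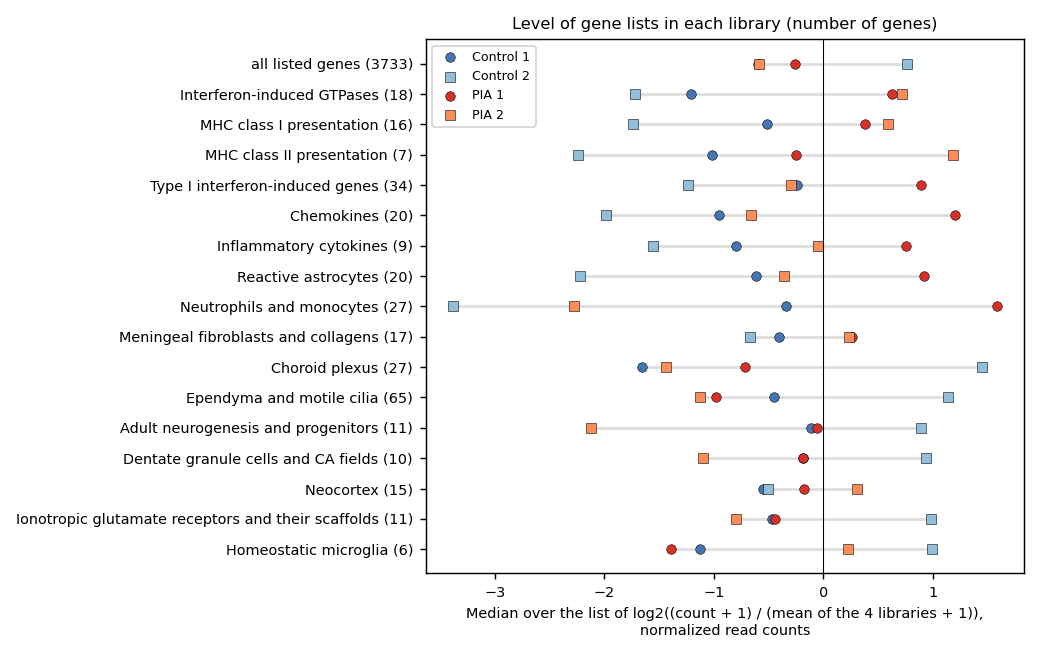
Level of 16 gene lists and of all listed genes in each library, as the median over the list of the log2 ratio of a library's normalized read count plus 1 to the mean of the 4 libraries plus 1 (horizontal axis). Circles and squares are the first and second library of Control (blue) and PIA (red and orange). Both PIA points lie to the right of both Control points for the GTPase, class I, class II, chemokine and inflammatory cytokine lists. The same holds for the reactive astrocyte, meningeal and neocortex lists, while the neutrophil list has PIA 1 at 1.59 and PIA 2 at -2.28.

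Genes of the meninges and of fibroblasts separated upwards at 10 of 17 and downwards at none, with a median log2 fold change of 0.70 against -0.68 over all genes. Without Control 2 these medians were 0.65 and 0.29. Ptgds, the prostaglandin D synthase of meningeal cells, counted 3525 and 2325 normalized reads in the Control pair and 11431 and 13579 in the PIA pair (log2 fold change 2.10 with an SE of 0.79; n = 2 a side; edgeR adjusted p = 0.483). Slc6a13, a GABA transporter of meningeal fibroblasts, had 425 and 408 against 821 and 940. Fmod, which binds collagen fibrils, had 321 and 353 against 622 and 1070. The fibrillar collagen genes did not follow, and Col1a1 had 3858 and 1461 in the Control pair and 2423 and 2204 in the PIA pair. Of 10 listed genes of endothelium and pericytes 3 separated upwards, among them the adhesion molecule gene Icam1 at 185 and 115 against 481 and 321. The amount of meninges in each dissection was not measured, and its part in these values was not tested.

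Choroid plexus genes gave no comparison of groups. Of 27 genes, 1 separated upwards and 2 downwards, and the median of -1.49 became 0.95 without Control 2. Clic6, an ion channel gene of its epithelium, counted 30.4 and 764 normalized reads in the Control pair and 123 and 16.4 in the PIA pair.

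Genes of motile cilia were lower in PIA. Motile cilia are the beating hairs of ependymal cells that line the ventricle, built from dynein arms, radial spokes and a central pair of microtubules. Their promoters are known for the X-box, read by RFX factors, and 3 are shown for that reason, with capitals for the ciliary X-box on either strand, at chr6:124779728-124779927 (minus strand), chr11:67965643-67965842 (minus strand) and chr11:72361883-72362082 (minus strand).
Lrrc23: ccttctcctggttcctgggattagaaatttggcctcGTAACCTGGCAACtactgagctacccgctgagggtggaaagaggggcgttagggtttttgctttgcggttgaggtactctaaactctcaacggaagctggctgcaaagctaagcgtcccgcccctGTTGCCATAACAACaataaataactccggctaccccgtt
Cfap52: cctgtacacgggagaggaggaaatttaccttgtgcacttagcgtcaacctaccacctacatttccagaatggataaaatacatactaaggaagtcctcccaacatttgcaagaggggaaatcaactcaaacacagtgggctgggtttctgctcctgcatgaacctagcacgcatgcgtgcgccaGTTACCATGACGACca
Tekt1: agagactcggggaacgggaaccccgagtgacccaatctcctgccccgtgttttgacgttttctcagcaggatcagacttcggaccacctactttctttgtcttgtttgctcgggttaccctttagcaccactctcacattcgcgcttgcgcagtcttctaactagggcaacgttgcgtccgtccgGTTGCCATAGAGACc
Lrrc23, a radial spoke gene, holds a match from 39 to 26 bases upstream of the start and a further one from 164 to 152. Cfap52 holds one from 16 to 3 bases upstream and Tekt1, in the first of its RefSeq promoters, one from 15 to 2. An X-box match was found in 41 of 59 promoters of the list (69.5%), against 19.9% of all 32851. An ISRE was found in 2 of the 59 (3.39%), about the share of all promoters.

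Of the 65 listed motile cilia genes, 41 were lower in both PIA libraries than in both Control libraries and none was higher. Of 64 tested, 63 had a fitted value below 0, with a median log2 fold change of -1.61 against -0.68 over all genes, and none was called. The median was -0.73 without Control 2, while the median of all genes was then 0.29. Against Control 1 alone 41 genes were lower in both PIA libraries (63.1%) and 10 were higher (15.4%). The shares over all listed genes were then 18.2% and 42.0%. Leaving out a library cannot lower the count of 41. Foxj1, the master regulator of motile cilia, counted 522 and 481 normalized reads in the Control pair and 200 and 194 in the PIA pair (log2 fold change -1.35 with an SE of 0.88; n = 2 a side; edgeR adjusted p = 0.617). Its libraries agreed closely within both groups. The dynein gene Dnah9 separated at 212 and 309 against 135 and 84.0. The tektin gene Tekt1 counted 92.1 and 115 normalized reads in the Control pair and 43.2 and 29.5 in the PIA pair. Cfap52 had 78.4 and 139 against 31.7 and 31.6, and Lrrc23 had 173 and 202 against 94.2 and 42.5. Hydin, of the central pair, had 62.7 and 131 against 24.98 and 17.5. Rsph4a, of the radial spoke head, had 34.3 and 139 against 24.98 and 7.64, so Control 1 and PIA 1 lay close. Rfx3, another regulator of cilia genes, overlapped at 214 and 725 against 203 and 245. Summed over the list, TPM was 174 and 476 in the Control pair and 101 and 84.3 in the PIA pair. Control 2 was the highest library in the choroid plexus list too. There the summed TPM was 89.7 and 14475 in the Control pair and 2485 and 122 in the PIA pair. Control 1 was thus the lowest in that list, while in the cilia list both PIA libraries lay below it. The part of ventricular tissue in these values was not tested.

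**Figure D4:**
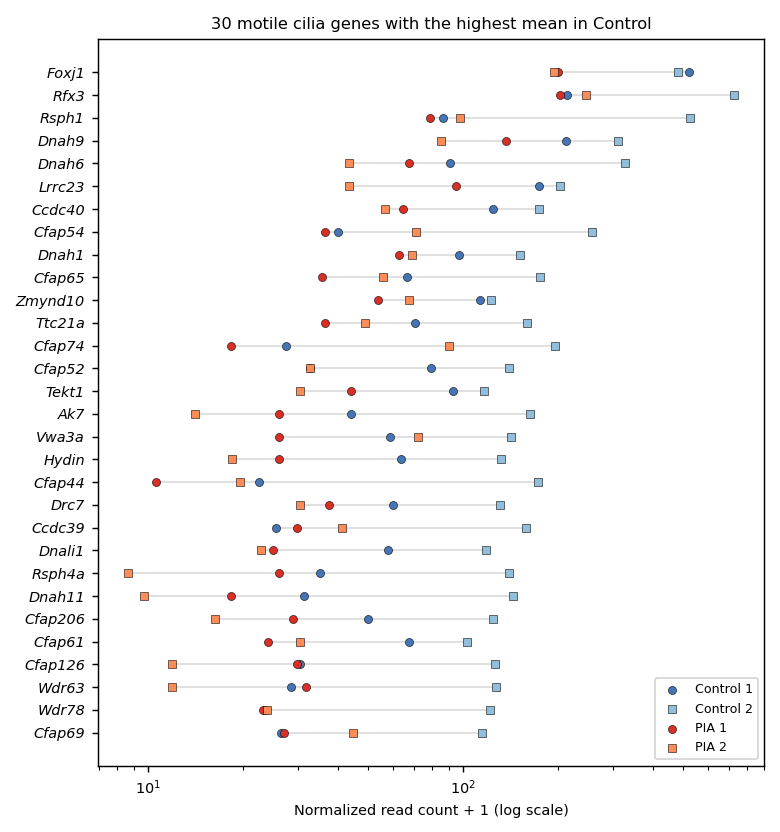
Normalized read count plus 1 (horizontal log axis) in the 4 libraries for the 30 motile cilia genes with the highest mean in Control. Circles and squares are the first and second library of Control (blue) and PIA (red and orange); Control 2 is the rightmost library at every gene but Foxj1, and Foxj1 shows both groups apart, at 522 and 481 against 200 and 194.

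Neuronal lists lay below 0 but mostly near the median of all genes. Of 11 listed genes of ionotropic glutamate receptors and their scaffolds 5 separated downwards, with a median log2 fold change of -0.98 that was -0.12 without Control 2 and -1.61 without Control 1. The AMPA receptor gene Gria2 counted 670 and 3073 normalized reads in the Control pair and 627 and 559 in the PIA pair, so Control 1 lay beside PIA. Of 17 genes of metabotropic glutamate, GABA and glycine receptors, 4 separated downwards and 2 upwards, with a median of -0.85 that was -0.10 with factors computed on the listed genes, -1.58 without Control 1 and 0.38 without Control 2. Gabrd, the delta subunit of extrasynaptic GABA receptors, was among the higher ones at 111 and 109 against 127 and 437. Of 17 monoamine, acetylcholine and peptide receptor genes 4 separated downwards (23.5%), and of 8 GABA neuron genes 3 (37.5%). Of 18 potassium channel genes 1 did so (5.56%) and 2 separated upwards. Of 14 sodium and calcium channel genes 1 separated downwards (7.14%) and 1 upwards. These shares are read beside the 16.5% of all listed genes that were lower. Drd5, a dopamine receptor gene, had 38.2 and 63.8 against 16.3 and 14.2. Bdnf, the brain-derived neurotrophic factor, counted 45.1 and 130 normalized reads in the Control pair and 36.5 and 18.5 in the PIA pair (log2 fold change -1.67 with an SE of 0.99; n = 2 a side; edgeR adjusted p = 0.617). It was lower in both PIA libraries, and PIA 1 lay close to Control 1.

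Genes of adult neurogenesis separated downwards at 5 of 11 (45.5%, against 16.5% of all listed genes). Their median log2 fold change of -1.38 was -0.59 without PIA 2, -0.70 without Control 2 and -2.67 without PIA 1. Eomes, of intermediate progenitors, counted 147 and 218 normalized reads in the Control pair and 122 and 3.27 in the PIA pair, and Neurog2 had 88.2 and 63.8 against 43.2 and 2.18. Mki67, a marker of dividing cells, had 44.1 and 149 against 27.9 and 17.5. The low values of Eomes and Neurog2 were those of PIA 2, which also had the lowest Prox1. Neocortical markers were mixed, with 9 of 15 listed genes higher in PIA 2 than in PIA 1. Cplx3, of deep cortical neurons, had 24.5 and 12.4 against 37.5 and 418 (log2 fold change 3.62 with an SE of 1.04; n = 2 a side; edgeR adjusted p = 0.102), and the layer marker Cux2 had 746 and 577 against 664 and 2400. Bcl11b, of deep-layer projection neurons and also of the dentate gyrus, lay the other way at 1245 and 1776 against 1129 and 348. Of the 15 genes 6 separated upwards and 3 downwards, and with factors computed on the listed genes 5 did so upwards and none downwards. Their median log2 fold change was 0.96, and it was 0.00 without PIA 2. The part of the dissection in these values was not tested.

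The remaining lists showed few separated genes, to be read beside the 17.2% of all listed genes that were higher and the 16.5% that were lower. Of 13 histone methyltransferase and demethylase genes 1 separated downwards (Kdm6a, at 117 and 408 against 104 and 110), and of 14 chromatin remodellers and acetyltransferases none did. None of 6 heat shock genes separated, and 1 of 5 glucocorticoid-induced genes did, Sult1a1, upwards. Of 5 oligodendrocyte genes 1 separated, Ermn, downwards at counts under 10, and none of 3 astrocyte genes did. No listed gene was a ribosomal protein, an erythroid or an X-inactivation gene, and the only mitochondrial one was Cox6a2.

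Beyond the lists, the genes with the smallest p or the widest gap included several of narrow expression. Lower in PIA were Mcpt4, a mast cell protease gene, with 17.6 and 10.5 normalized reads in the Control pair and 0 and 0 in the PIA pair, and Aspn, asporin of the extracellular matrix, with 12.7 and 15.2 against 0.961 and 1.09. C1qtnf3, a secreted C1q-related factor, had 48.0 and 21.9 against 0.961 and 2.18 (log2 fold change -4.39 with an SE of 1.38; n = 2 a side; edgeR adjusted p = 0.248). Zbtb20, a factor of hippocampal identity, had 317 and 1548 against 250 and 55.6, so that Control 1 and PIA 1 lay near each other. Tekt3, a tektin of cilia and sperm tails, had 9.79 and 9.52 against 0 and 0. Higher in PIA were Lipo2, a lipase gene, with 0 and 0 against 24.02 and 10.9, and Rab17, a GTPase of epithelial traffic, with 0 and 0 against 8.65 and 6.55. None of the genes in this paragraph was called, and apart from Zbtb20 their counts are small.

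The composition of transcripts moved with the groups and with the libraries. Median GC content was 53.9% over transcripts of genes that separated upwards, 46.7% over those that separated downwards and 43.4% over those that did not separate, and their median lengths were below that of all listed genes (2406 and 3253 against 3594 bases). Across 3081 tested genes, which share libraries and are not independent replicates, the fold change of PIA against Control had a Spearman rho of 0.39 with GC content. The ratio of Control 2 to Control 1 had a rho of -0.52 over 3545 genes, and that of PIA 2 to PIA 1 a rho of 0.18. The GTPases had a median GC content of 44.4%, near the 44.9% of all listed genes, while the class I genes had 55.5% and the motile cilia genes 48.0%. The part of GC content in the separation was not tested.

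**Figure D5:**
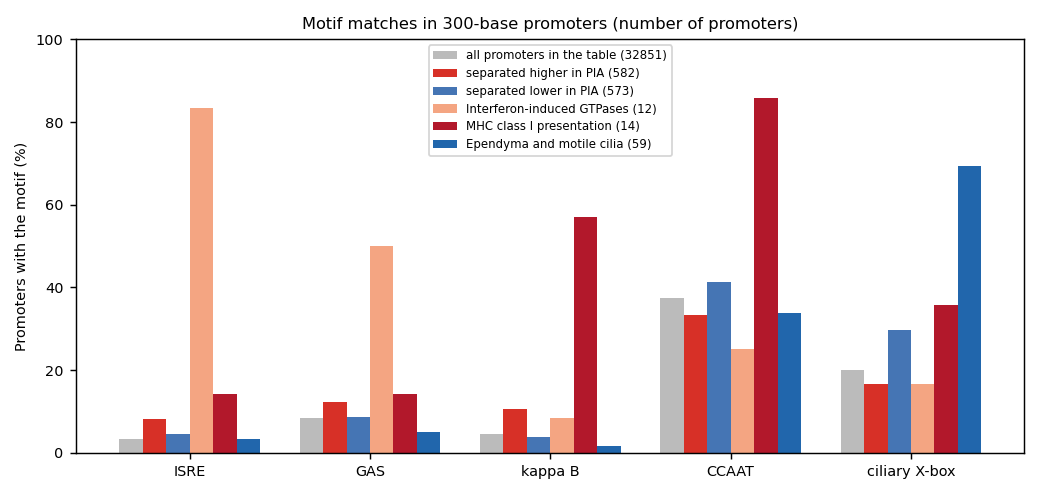
Share of 300-base RefSeq promoters that hold each motif on either strand (vertical axis, percent), for all 32851 promoters (grey), genes that separated higher (red) or lower (blue) in PIA, and 3 lists. The bars stand highest for the ISRE in GTPases (83.3%), the CCAAT box and kappa B in class I genes (85.7% and 57.1%) and the X-box in motile cilia genes (69.5%).

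The same motifs were counted over all genes whose groups did not overlap. An ISRE was found in 8.08% of the promoters of genes higher in PIA and in 4.54% of those of genes lower in PIA. Over all listed genes the share was 4.82%. A kappa B match was found in 10.7% and 3.84%, a GAS in 12.2% and 8.73%, and a ciliary X-box in 16.7% and 29.7%. Over all listed genes these shares were 5.51%, 8.84% and 23.2%. The members of the lists above are included in these shares.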

How the data were processed

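Total RNA of mouse hippocampus was sequenced, with 2 libraries for each of the Control, PIA and PIA+IL-27 labels. The authors deposited 1 table with, per the file headers, an expected count (read count), a normalized read count (a signal equal to the rounded-up count divided by 1 factor per library, 0.917 to 1.05), TPM and FPKM per library, and a log2 fold change and p-value or Q value per comparison; the deposited log2 and Q columns served only to describe the selection. The aligner, counter, strand and genome build were not given in the sources used here. Each of the 3733 genes reaches a fold of 1 on the log2 scale and a Q of 0.05 in at least 1 comparison of the authors' deposited table. The genes tested were thus chosen in part on the difference tested. Adjusted p-values are therefore descriptive and control no error rate, even within this selection. Library depth was derived from the FPKM, length and reads of 25 single-transcript genes.

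Expected counts were rounded and fitted in edgeR 4.0.16 (R 4.3.3; quasi-likelihood, all 6 libraries, the authors' whole-library factors, filterByExpr with a minimum count of 10, Benjamini-Hochberg threshold 0.05), which tested 3216 genes at a coefficient of variation of 0.597; SEs derive from the F statistic. The script was tested on simulated data. The prior of the fit was infinite, so the spread was pooled over genes and SEs do not show the replicate spread of a single gene. Fold changes of genes at 0 in a group are not printed. Separation means that both values of a group lie beyond both of the other in normalized read counts. Medians are given for lists with at least 5 tested genes. Named genes were the 10 higher and 10 lower separated genes with the smallest p, the 10 and 10 with the widest gap, up to 4 per list with the smallest p, defining regulators, and every called gene; other list members are named where they show a list's spread. Many genes that these rules pick are not described in the text, and 1 is not reported here. Members, lists and rules were chosen with earlier results of these data known. GC content and length came from the longest coding GENCODE M21 transcript (95.0% of genes) and promoters from the RefSeq table, matched by symbol. Alternatives were factors by TMM or by median of ratios, no filter, 4 libraries only, a replicate block, DESeq2 1.42.0, limma 3.58.1 on log2(TPM + 1), deposited TPM for separation, and each library left out, the last added for separation after the data were seen.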

Additional observations from a re-analysis of the deposited data

How the results depend on the processing

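The 7 calls (5 higher, 2 lower) depended on the setting. None was made with TMM factors (117 genes at an unadjusted p under 0.05) or median-of-ratios factors (112), 2 by DESeq2 (2 higher, 0 lower) and 9 without the filter on low counts (4 lower). Without 1 library there were 0 to 4 calls, 0 to 3 higher and 0 to 1 lower. With replicate number as a block there were 3 (3 higher, 0 lower). Same-numbered libraries of Control and PIA deviated together with a correlation of 0.15 over 3216 genes. The correlation was 0.060 for Control and PIA+IL-27 and -0.26 for PIA and PIA+IL-27. These correlations do not settle whether same-numbered libraries belong together. The cause of these differences was not tested.

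Separated genes numbered 844 to 1568 (higher) and 679 to 2537 (lower) without 1 library, counts that cannot fall when a library is left out. The median of all genes was 0.00 with TMM or median-of-ratios factors and -1.19 to 0.29 without 1 library. Of 31 list medians 26 kept their sign under both scalings and 20 without any 1 library. With TMM and median-of-ratios factors, respectively, medians were 2.59 and 2.59 for GTPases (1.31 by limma), 0.27 and 0.27 for homeostatic microglia and -0.10 and -0.10 for metabotropic glutamate, GABA and glycine receptors; with TMM the meningeal median was 1.05. Without 1 library, medians ran from 2.07 to 2.69 for GTPases, -1.82 to 0.93 for homeostatic microglia, 0.67 to 2.89 for reactive astrocytes, -1.41 to 5.16 for neutrophils, -2.29 to 0.95 for choroid plexus, -2.17 to -0.73 for motile cilia, -1.61 to -0.12 for ionotropic glutamate receptors, -1.58 to 0.38 for metabotropic glutamate, GABA and glycine receptors and -2.67 to -0.59 for neurogenesis. Differences of under 2-fold lie within the spread of single genes at this number of libraries.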

Other observations

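The groups of genes in this section were assembled after their values were seen, so their counts follow from the choice and are descriptions only. The 17.2% of listed genes higher and 16.5% lower in both PIA libraries are no baseline for such counts.

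Genes of mast cells, which lie in the meninges and along vessels and store proteases and histamine, were lower in both PIA libraries at 6 of 7 listed genes. The chymase gene Cma1 counted 29.4 and 13.3 normalized reads in the Control pair and 1.92 and 4.36 in the PIA pair. The tryptase gene Tpsb2 had 25.5 and 11.4 against 2.88 and 1.09, and the carboxypeptidase gene Cpa3 had 5.88 and 4.76 against 0 and 1.09. Hdc, which makes histamine, had 97.0 and 126 against 49.965 and 53.5. The seventh, Mcpt2, had reads in Control 2 and 1 read in PIA 1. All but Hdc are at low counts.

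A set of 15 listed genes of the arachnoid barrier and meninges, picked with their values in view, was higher in both PIA libraries at all 15. Of these, Ptgds, Slc6a13 and Slc13a4 also stand in the meningeal or choroid plexus lists, and in the meningeal list 10 of 17 separated and 3 were below 0. Foxc2, a factor of meningeal development, counted 22.5 and 20.95 normalized reads in the Control pair and 71.1 and 68.7 in the PIA pair. Cdh1, the E-cadherin of barrier cells, had 60.7 and 16.2 against 145 and 204. Wnt6 had 25.5 and 18.1 against 85.5 and 74.2, and Upk1b had 7.84 and 7.62 against 33.6 and 28.4. For Foxc2, Wnt6 and Upk1b the libraries agreed within each group. The part of the dissection in the mast cell and meningeal values was not tested.

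Further genes of multiciliated cells were also examined. Of 21 further motile cilia genes, 19 were lower in both PIA libraries. Mcidas, which starts the multiciliated fate, counted 24.5 and 13.3 normalized reads in the Control pair and 3.84 and 2.18 in the PIA pair, and Myb had 38.2 and 43.8 against 15.4 and 9.82. Dnajb13, of the radial spoke, had 53.9 and 60.0 against 20.2 and 12.001. Not all regulators separated. Gmnc, upstream of Mcidas, had 1.96 and 33.3 against 3.84 and 2.18.

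A further 11 genes linked to interferon gamma or to activated myeloid and NK cells were picked because they were higher in both PIA libraries. Ubd, a ubiquitin-like gene, counted 1.96 and 0 normalized reads in the Control pair and 6.73 and 10.9 in the PIA pair. H2-Q9, a class I gene with close copies, had 27.4 and 14.3 against 68.2 and 195. Siglece, an inhibitory receptor gene of myeloid cells, had 22.5 and 11.4 against 93.2 and 66.6.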
